A study of Apeltes quadracus with 85 samples.

Results

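At 6 short stretches of the genome of the fourspine stickleback *Apeltes quadracus*, the share of RNA reads from each allele varied between tissues. They are called locus A (chromosome 19, from 2415487 to 2419794), locus B (chromosome 17, from 6717085 to 6720885), locus C (chromosome 11, from 7293126 to 7297678), locus D (chromosome 11, from 304371 to 305214), locus E (chromosome 4, from 8960149 to 8960200) and locus F (chromosome 18, from 13980801 to 13980804). Coordinates follow the assembly that the study built from a Louisbourg animal with 4 spines and ordered along the threespine stickleback genome. The spans had been selected on allele ratios in earlier scans of these same libraries, so a tissue difference in allele share at a single site is given here as a description with no test. All listed single-nucleotide variant sites within 20 kb of a span were members, which gave 1344 of 513939 sites. Of these, 142 lay at locus A, 303 at B, 414 at C, 110 at D, 212 at E and 163 at F, and 465 lay inside the spans. No gene annotation was used here, so the genes, exons or introns at these positions are not named.

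The libraries came from 11 F1 fry of Louisbourg parents at the finfold stage (stage 31, 11 to 13 mm long), the stage at which spines and fins form in the midline fold. The fry carried 3 genotypes of the HOXDB cluster, a set of homeobox genes on chromosome 6: H/L (4 fish), H/LHR (3 fish) and L/LHR (4 fish). H and L are the haplotypes that the study tied to high and low spine number, and LHR is a recombinant of both. There was no treatment, and the study compared the dorsal tissues with the anal fin (AF), with reads summed over fish. Besides AF, the tissues were the dorsal fin (DF), the last dorsal spine in front of it (DSL), a pterygiophore without a spine (Pter, a bony plate of the midline) and DS1, DS2, DS3 and DS4, the spines further forward, which made 8 in all. DS4 was sequenced in 8 of the 11 fish and in only 1 L/LHR fish, which left 85 libraries.

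In an F1 fish each heterozygous site marks both parental copies of a gene in the same cells. The share of reads from each copy is known as allele-specific expression, and a share that differs between tissues shows unequal expression of the copies that depends on the cells sampled. That reading requires that all reads at the site come from that one gene, which was not tested here. None of the 6 loci lies on the chromosome of the HOXDB cluster, so the genotype groups are not defined by the alleles counted here.

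The quantity reported is the alternate share, the percent of a library's reads at a site that carry the alternate base. It is given where the library had at least 10 reads and the fish was called heterozygous. Any single library with at least 10% of reads from the rarer allele sufficed for that call. Where the rarer allele lay near that limit, a fish could enter through a single tissue, which favours a tissue difference. Sites are written with the reference base first, then the position counted from 1 at the start of the chromosome, then the alternate base. Depth, the allele-counted reads summed over all listed sites, ranged from 2.15 to 46.6 M (mega) with a median of 35.2 M. Of the 85 libraries 6 fell under 10 M reads, 5 of them from H/L fish. Levels are reads of both alleles in RPM, reads per 1 M reads of that depth. A read that covers several sites is counted at each. Intervals cover counting error only, since the reads carry no molecular identifiers.

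The members differed from the other sites of the series in how many fish were heterozygous. Of 436 member sites that were heterozygous in at least 3 fish, 224 (51.4%) were heterozygous in all 11, against 11.0% of 40993 such sites elsewhere. Inside the spans the figure was 169 of 244 (69.3%), and in the flanks it was 55 of 192 (28.6%). By locus the spans gave 5 of 9 sites at A, 41 of 64 at B, 106 of 148 at C, 7 of 11 at D, 8 of 10 at E and 2 of 2 at F. The flank sites came from B (39 of 52), C (14 of 51) and F (2 of 27), with 0 of 6 at A, 0 of 1 at D and 0 of 55 at E. Heterozygosity in the fish of a genotype was needed for a site to enter a scan, so part of this excess follows from the choice of the loci. Of the other member sites, 816 were heterozygous in no fish.

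**Figure D1:**
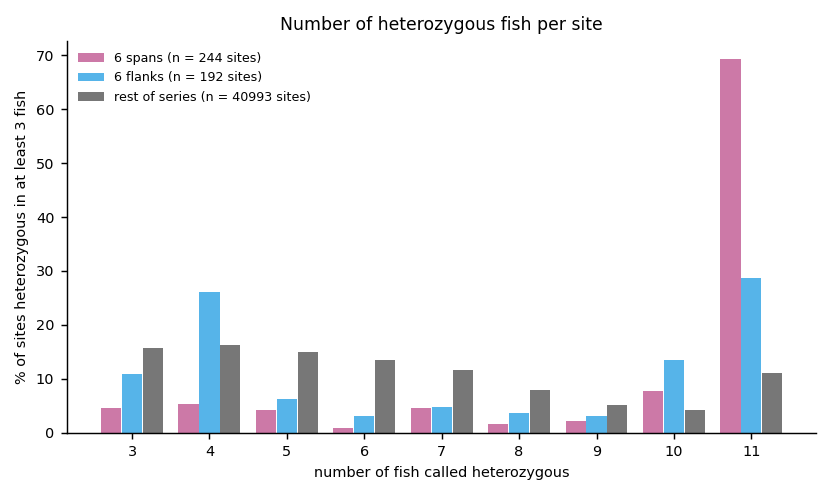
Number of the 11 fish called heterozygous (x axis) against the percent of sites heterozygous in at least 3 fish (y axis), for sites inside the 6 spans, in their flanks and in the rest of the series. The bar at 11 fish reaches 69.3% in the spans, 28.6% in the flanks and 11.0% elsewhere.

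The spacing of the heterozygous sites also set the members apart, and spacing played no part in the rule. Locus E shows it most plainly. Its 10 sites lie at 8960149, 8960152, 8960161, 8960164, 8960167, 8960176, 8960179, 8960188, 8960194 and 8960200, so that all 9 gaps between neighbours are multiples of 3 bases. Coding sequence is read in steps of 3 bases, but no reading frame was known for these positions. Over all member sites heterozygous in at least 3 fish, 199 of 294 gaps of up to 30 bp (67.7%) were multiples of 3, against 31.0% of 12969 such gaps in the rest of the series. Inside the spans it was 151 of 203 (74.4%), with 99 of 130 at C, 33 of 52 at B and 7 of 9 at D. The gaps within a locus are neighbours in the same sequence and are not independent, so no test was made.

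Reads that the counter set aside for low mapping quality made up 4.27% of raw reads summed over the member sites and 4.53% in the rest of the series. Per heterozygous site with at least 1000 raw reads the median share was higher at the members, at 1.16% (1.52% inside the spans), than in the rest (0.624%). Summed over the spans it was 5.96% at F, 5.68% at C, 4.76% at B, 2.996% at A, 2.46% at D and 0.340% at E. The flanks of C stood out at 24.1%. The part of read mapping in the allele shares was not tested.

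Few of the listed sites nearest the distance limit of 20 kb were called heterozygous, but many of them had few reads. A call needs at least 10 reads in 1 library. Over all libraries C7275340T had 7 reads and A8978903G had 9, and G291298A had an alternate share of 66.1% over 59 reads with no call. Variation near the limit therefore cannot be judged from these sites. Of the 12 sites just inside the limit, 1 on each side of each span, only G8940213A at locus E was heterozygous (4 fish, alternate share 34.2% over 970 reads). Of the 12 sites just outside it, G8981843C near locus E (51.0% of 249 reads) and A14001006C near locus F (0.276% of 1087 reads) were heterozygous in 1 fish each.

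Each locus is described first by the site inside its span with the most reads. These were T2419746C at A, G6717913A at B, T7297678C at C, G304404T at D, T8960161C at E and C13980801T at F, and all 6 were heterozygous in all 11 fish. Loci A, C, D and E had the same pattern. Their mean alternate share was higher in each of the 5 spines and Pter than in DF and AF, and the mean over a fish's spine-row tissues (the 5 spines and Pter) exceeded that over its fins in 11 of 11 fish. Single tissues could overlap: every spine-row tissue lay above both fins in 7 fish at A and in 8 at each of C, D and E. Loci B and F did not follow the whole pattern. At F the spine-row mean exceeded the fin mean in 10 of 11 fish (33.4% and 22.6%). However, in 0 fish did every spine-row tissue lie above both fins. Alternate means only the base that differs from the assembly, and sites were not phased. A like direction at several loci therefore does not mark the same parental copy.

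**Figure D2:**
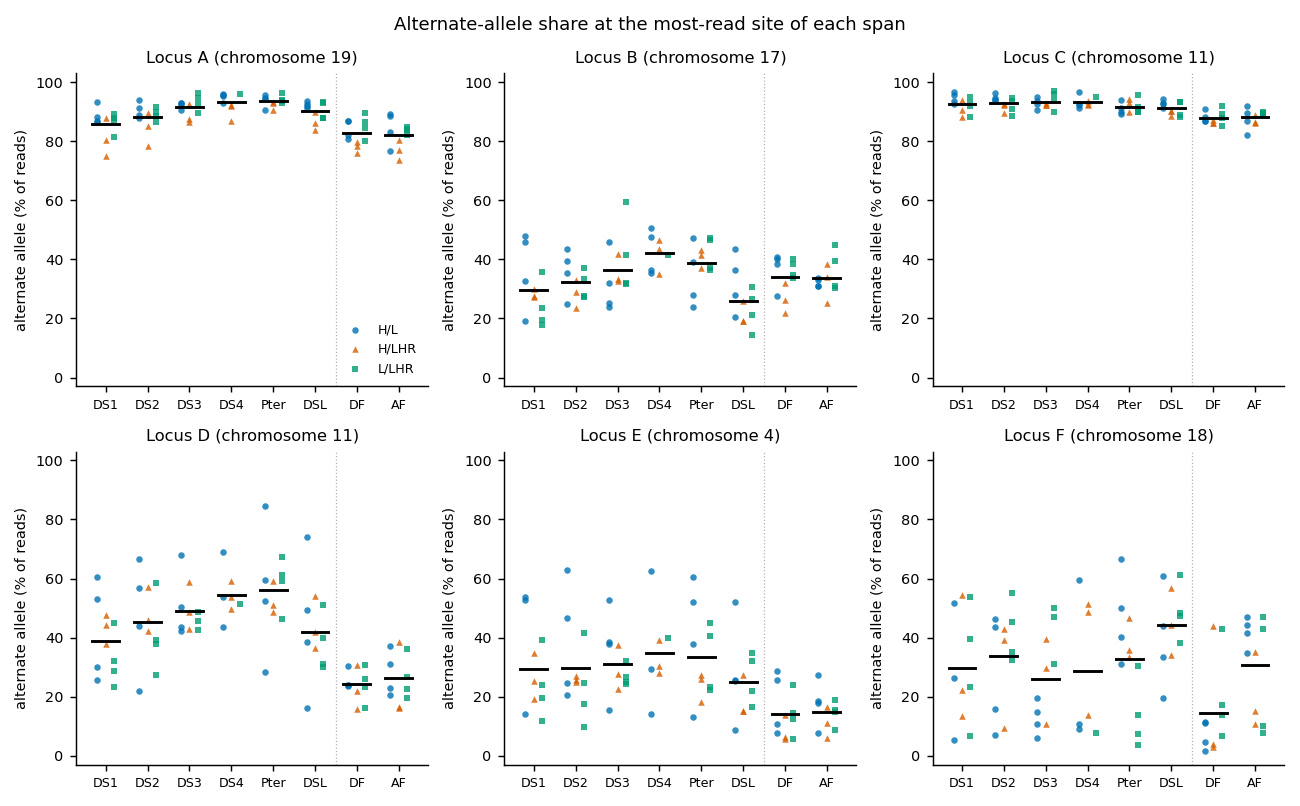
Alternate share (percent of reads, y axis) at the most-read site of each span by tissue (x axis), 1 point per fish with genotype by colour and shape; the black line is the mean over fish and the dotted line separates the spine row from the fins. At loci A, C, D and E the DF and AF means sit below the means of all 6 spine-row tissues, while at locus B DSL is lowest (25.9%) and at locus F DF is lowest (14.6%).

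Of the 6 most-read sites, G304404T of locus D had the widest range of tissue means in percentage points. Its alternate share in DF was 24.2% ± 5.18 (SD, n = 11), with a lowest fish of 15.8%, a median of 23.9% and a highest of 30.9%. In AF it was 26.2% ± 8.29 (n = 11), from 16.2% through 22.9% to 38.6%. Both fins thus carried mostly the reference base in every fish. Along the back the share was 38.9% ± 12.1 in DS1, 45.3% ± 13.7 in DS2, 49.2% ± 8.28 in DS3 (n = 10) and 54.3% ± 7.99 in DS4 (n = 7). It was 56.2% ± 14.0 in Pter, where fish ranged from 28.5% through 59.2% to 84.6%, and 42.0% ± 15.1 in DSL, from 16.1% through 39.8% to 73.9%. The fin and spine ranges overlapped over fish, but within a fish the spine-row mean lay above the fin mean in 11 of 11 fish, and in 8 fish every spine-row tissue lay above both fins. The mean was 47.1% ± 8.80 over the spine row and 25.2% ± 6.54 over the fins. Neighbouring means from DS2 to Pter lie closer together than their SDs.

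The other sites in the locus D span moved with it. Its first site, T304371C, ran from 25.5% in DF to 57.6% in Pter, and its last, C305214T, from 9.09% ± 3.53 in DF to 29.4% ± 14.2 in DS4. Of 10 further span sites, 9 had tissue profiles correlated with that of G304404T at r of at least 0.8 over the 8 tissue means (lowest 0.76), and these sites share reads and fish. The only flank site with enough reads, A314110G, was heterozygous in 5 fish and had a highest tissue mean of 6.88%.

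Locus E repeated the division at lower shares. T8960161C had an alternate share of 14.1% ± 8.34 in DF (n = 11; lowest 5.74%, median 12.5%, highest 28.6%) and 14.9% ± 6.14 in AF (5.97%, 15.5% and 27.5%). The spine-row means were 29.5% ± 15.1 in DS1, 29.6% ± 15.0 in DS2, 31.0% ± 10.2 in DS3, 34.9% ± 15.0 in DS4, 33.3% ± 15.0 in Pter and 25.0% ± 11.9 in DSL. Fish differed widely in each spine tissue, as in DS2, where they ran from 9.85% through 24.9% to 63.1%. The order among the spine-row tissues was within that spread. Within fish the spine-row mean (30.4% ± 10.8) exceeded the fin mean (14.5% ± 6.74) in 11 of 11, and 8 fish had no overlap. The 9 other span sites all followed T8960161C (r from 0.94 to 1.00). They lie in the same short stretch and share reads and fish with it, so their agreement is not separate support. T8960149C ran from 8.85% in AF to 27.9% in DS2, and G8960200C, heterozygous in 10 fish, from 5.33% in DF to 14.5% in Pter. The means of G8960200C lie around the 10% limit for a heterozygous call. The call thus favoured fish with a high share in some tissue, and the profile of that site is not independent of it. In the flanks the most-read site, C8947555G (8 fish), stayed between 43.3% and 49.9%.

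Locus A was by far the most abundant, and at its most-read site the alternate base dominated in every tissue. At T2419746C the share was 82.1% ± 4.83 in AF (lowest 73.5%, median 83.0%, highest 89.0%) and 82.8% ± 4.28 in DF (75.9%, 82.2% and 89.5%). It was 85.8% ± 5.06 in DS1, 88.4% ± 4.103 in DS2, 91.7% ± 2.97 in DS3, 93.3% ± 3.08 in DS4 (n = 8), 93.5% ± 1.83 in Pter (90.5%, 93.5% and 96.3%) and 90.1% ± 3.30 in DSL. All Pter values lay above all DF and AF values. The rarer allele met the 10% limit for a heterozygous call in every DF and AF library but in no Pter library. Fish could thus be called through their fins and not through Pter, and this separation is not independent of the call. In 7 fish every spine-row tissue exceeded both fins, and the means were 90.3% ± 3.03 and 82.4% ± 4.24. Counting error was small beside the spread of fish: the 141381 Pter reads gave an exact binomial 95% interval (Clopper-Pearson) of 93.4% to 93.6%.

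The ends of the locus A span varied far more between fish than its most-read site. C2415487T had a mean of 50.8% ± 27.2 in DS1 (fish from 17.7% to 85.7%) and 82.2% ± 18.6 in DS3, and in AF single fish ran from 10.9% to 78.3%. A2419794T, close to T2419746C, ran from 16.9% ± 9.96 in DF to 50.01% ± 19.7 in DS4. Of 7 other span sites, 5 followed T2419746C at r of at least 0.8 and 2 ran against it at −0.8 or below. The most-read flank site, T2415364C, was heterozygous in 3 fish and also ran the opposite way, from 10.7% ± 0.893 in AF to 2.22% ± 0.633 in Pter (n = 3). These shares lie near or below the 10% limit for a heterozygous call. The call thus favoured fish with a high share in some tissue, and this profile is not independent of it.

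At its most-read site locus C had the smallest contrast of these 4 and the least spread. The alternate share at T7297678C was 87.8% ± 2.10 in DF (lowest 84.99%, median 87.1%, highest 92.0%) and 88.2% ± 2.62 in AF (82.1%, 89.3% and 91.9%). The spine-row tissues lay between 91.2% ± 2.18 in DSL and 93.3% ± 1.79 in DS4 (91.2%, 92.6% and 96.8%). The spine-row mean exceeded the fin mean in 11 of 11 fish (92.4% ± 1.605 and 88.0% ± 2.05), with no overlap in 8. The rest of this locus was not of one kind. Of 141 other span sites only 5 followed T7297678C at r of at least 0.8. Of the 170 sites described at locus C, 94.7% had tissue means that spanned over 10 percentage points. Their median range was 26.2 points, the widest of these 4 loci. G7293126C, the first site of the span, was highest in DS1 (91.4% ± 8.33) and lowest in Pter (69.1% ± 14.0). C7293096A, just before the span, had the same extremes (97.3% ± 2.62 and 84.7% ± 5.94, n = 9). At T7297678C and C7293096A the rarer allele lay near the 10% limit for a heterozygous call. At T7297678C, L/LHR replicate 1 passed it only in AF (89.9%) and H/L replicate 2 only in Pter (89.8%).

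Locus B separated DSL from its neighbours rather than spines from fins. At G6717913A the share was 25.9% ± 8.48 in DSL (lowest 14.3%, median 25.9%, highest 43.4%), 38.8% ± 7.61 in Pter (23.8%, 39.1% and 47.3%) and 42.1% ± 6.04 in DS4 (35.0%, 42.6% and 50.7%, n = 8). DF (34.002% ± 6.402) and AF (33.8% ± 5.27) lay between, with DS1 at 29.7% ± 10.2, DS2 at 32.2% ± 6.38 and DS3 at 36.3% ± 10.2. Spine-row and fin means did not separate (33.7% ± 4.60 and 33.9% ± 4.81, the spine row higher in 5 of 11 fish). The pattern reached outside the span. The flank site C6722409T was also lowest in DSL (83.7% ± 6.89) and highest in Pter (92.1% ± 3.02), and 19 of 47 flank sites followed G6717913A at r of at least 0.8, beside 14 of 57 span sites. G6717085A ran differently, from 24.3% ± 4.41 in Pter to 39.4% ± 9.08 in AF, and C6720885A had SDs between 16.4 and 20.8 points in each tissue.

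Locus F was the shallowest, with 218 to 753 reads per tissue summed over fish at C13980801T. Its alternate share was lowest in DF, at 14.6% ± 15.0 (lowest fish 1.79%, median 11.1%, highest 44.0%), and highest in DSL, at 44.4% ± 12.7 (19.4%, 44.3% and 61.1%). AF, at 30.6% ± 16.2, lay with the other spine-row tissues (25.9% to 33.9%) and not with DF. The exact 95% intervals of the summed reads were 14.1% to 20.0% in DF and 39.3% to 48.0% in DSL. They treat the reads of all fish as independent and leave out the spread between fish, so nothing is concluded from the gap between them. G13980804A, 3 bases away, gave 7.11% ± 15.8 in DF and 39.2% ± 17.6 in DSL. These means mix libraries with and without alternate reads. In DF only H/LHR replicate 2 (39.5% of 86 reads) and L/LHR replicate 2 (38.7% of 62) had any. A single fish could differ as sharply between tissues: H/LHR replicate 1 had 0 of 49 reads in DF and 55.1% of 49 in DSL. A13969875C in the flank stayed between 50.1% and 55.3%.

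The 3 HOXDB genotypes showed the same divisions at loci A, C, D and E, where all 6 spine-row means lay above both fin means in each genotype. At D the range over tissues was 25.4% to 56.3% for the H/L genotype, 22.9% to 54.2% for H/LHR and 24.04% to 58.5% for L/LHR. At E it was 17.96% to 41.0%, 8.60% to 32.7% and 14.2% to 39.8%. At A it was 84.1% to 94.9%, 77.0% to 92.3% and 83.8% to 95.8%, where the L/LHR maxima at A, C and E come from the single DS4 library of that genotype. At B, DSL was the lowest tissue in H/LHR (21.4%) and L/LHR fish (23.2%), while in H/L fish DS3 was lowest (31.7%). At F, DF was lowest in H/L (7.25%) and H/LHR fish (16.995%), and in L/LHR fish the single DS4 library was (7.69%).

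The tissue profiles of loci A, C, D and E resembled each other, and those of B and F did not resemble them. Over the 8 tissue means at the most-read sites, Pearson's r was 0.97 between A and D, 0.96 between D and E, 0.95 between C and E, 0.89 between A and E, 0.85 between C and D and 0.77 between A and C. The 9 pairs with B or F had r between −0.44 and 0.46. The points share fish and libraries, and the loci were chosen for tissue differences, so these values are descriptive. The sign of each r also depends on which base is listed as alternate.

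The level of both alleles differed between loci and tissues. At the most-read sites the means ran from 295 RPM in DF to 565 in DS4 at A, from 46.5 in AF to 84.6 in DSL at B and from 83.5 in DF to 157 in DS4 at C. They ran from 4.52 in DS3 to 7.77 in DF at D, from 4.01 in DS3 to 7.22 in DF at E and from 0.911 in DS4 to 1.88 in AF at F. The DS4 mean at C leans on the shallow library of H/L replicate 3 (2.69 M reads). That library had 323 RPM, against 114 to 158 in the other DS4 libraries. On this scale both fins were the lowest tissues at A, B and C and the highest at D and E. In dissected tissue, fewer cells of a type and less RNA per cell cannot be told apart.

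How the alternate share related to the level differed between loci, and the sign of that relation depends on which base is listed as alternate. At the most-read sites of A and C the alternate base was the majority in every tissue. At those of D and E it was the minority in both fins. Across the 8 tissue means at the most-read sites, Pearson's r of share with level was 0.94 at C (Spearman's rho 0.93) and 0.76 at A (0.55), but −0.89 at D (−0.81) and −0.92 at E (−0.62), with −0.29 at B (−0.60) and 0.29 at F (0.29). Within single fish the rank correlation was positive at C in 11 of 11 fish and at A in 10, and negative at D in 11 and at E in 10. The scale of the level changed the negative cases. Trimmed mean of M-values (TMM) scaling factors averaged 1.23 in DF and 1.18 in AF but 0.840 in DS4, and with TMM-scaled library sizes r became −0.42 at D and −0.55 at E, 0.82 at A, 0.90 at C, 0.10 at B and 0.66 at F. Each share enters both axes through the same reads, so these are descriptions over 8 tissues.

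**Figure D3:**
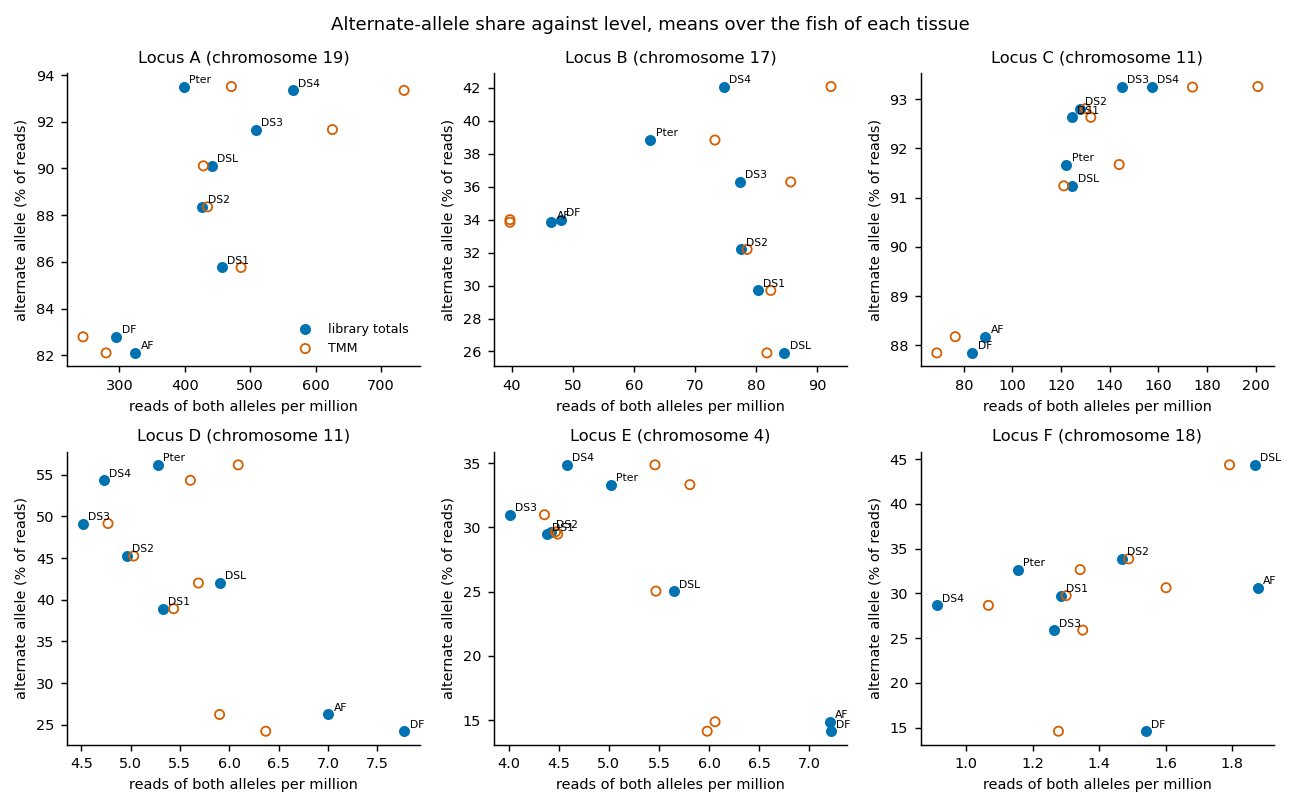
Mean alternate share (percent of reads, y axis) against mean level of both alleles (RPM, x axis) at the most-read site of each span, 1 filled point per tissue on library totals and 1 open point on TMM-scaled totals. At T7297678C of locus C share and level rise together (r of 0.94), while the median rank correlation over 170 sites of C was −0.43. At D and E the fins lie at low share and, on library totals, at the highest level (r of −0.89 and −0.92).

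The alleles taken singly moved in opposite directions at D and E, and which of them differed more depended on the scaling. On library totals the reference allele of G304404T (locus D) fell from 5.86 RPM ± 0.930 in DF to 2.10 ± 0.624 in DS4, while the alternate allele ranged from 1.82 in AF to 3.03 in Pter. The spine row had 0.477 times the reference level and 1.33 times the alternate level of the fins. On TMM scaling these ratios were 0.606 and 1.71, and the alternate allele then ranged over tissues by 2.26 times and the reference allele by 1.95 times. At E the reference allele of T8960161C was at 6.31 RPM ± 2.36 in DF and 2.78 ± 0.765 in DS3, with spine to fin ratios of 0.529 (reference) and 1.43 (alternate), or 0.675 and 1.85 on TMM scaling. The alternate allele of T2419746C (locus A) rose from 244 RPM ± 30.2 in DF to 531 ± 329 in DS4, and its spine-row level was 1.67 times that of the fins. The reference allele of T2419746C ranged from 25.5 RPM ± 7.31 in Pter to 60.97 ± 23.4 in DS1, a span of 2.39 times beside 2.17 times for the alternate allele, and its spine to fin ratio was 0.759, or 0.965 on TMM scaling. At C the alternate allele of T7297678C differed more than the reference allele on both scalings. Its spine to fin ratio was 1.64, while the reference allele lay between 8.57 and 10.5 RPM (0.915 times, or 1.17 times on TMM scaling). At B both alleles of G6717913A were higher in the spine row by about the same factor (1.599 and 1.62 times). At F the alternate allele of C13980801T ran from 0.252 RPM in DF to 0.836 in DSL.

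**Figure D4:**
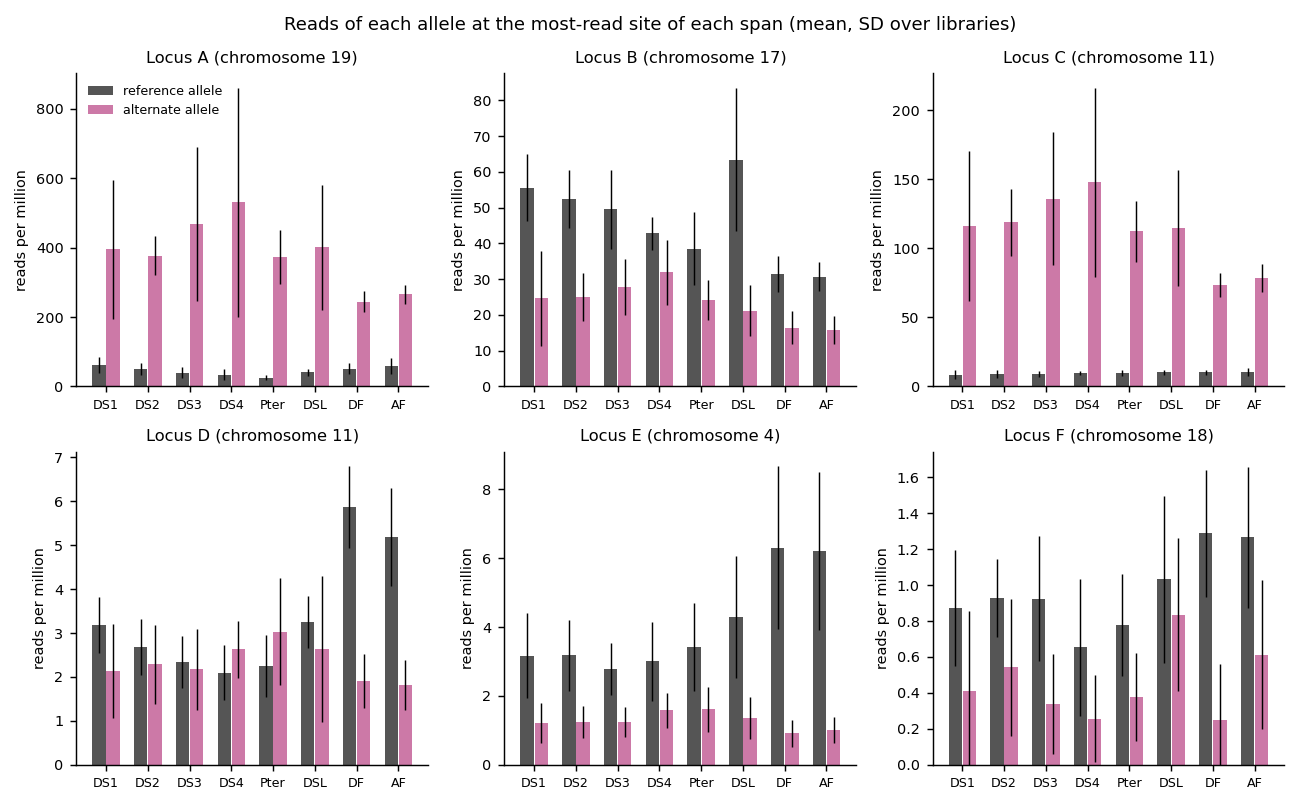
Level in RPM of the reference and the alternate allele (y axis, starting at 0) at the most-read site of each span by tissue (x axis), bars giving means and error bars the SD over libraries, scaled by library totals. At D the reference bars drop from 5.86 in DF to 2.10 in DS4 and the alternate bars range from 1.82 in AF to 3.03 in Pter; at C the reference bars lie between 8.57 and 10.5.

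Relations of share with level were also counted over all sites of the loci. Of 338 member sites with at least 3 heterozygous fish in each tissue, 254 (75.1%) had tissue means spanning over 10 points, against 47.3% of 17823 other sites, a difference that the choice of the loci favours. A rank correlation of share with level of at least 0.7 in size was found at 62 (18.3%; 46 negative), against 8.62% of the other sites and 11.4% of 3896 other sites heterozygous in all 11 fish. The excess lay at loci D (10 of 12 sites) and B (28 of 105, 26.7%). Locus C had 21 of 170 (12.4%; 18 negative and 3 positive), E 2 of 22 (9.09%), F 1 of 20 and A 0 of 9. The median rank correlation over the 170 sites of C was −0.43, opposite in sign to that at T7297678C. On TMM scaling the count was 49 (14.5%), against 8.82% of the other sites and 12.1% of those heterozygous in all 11 fish. Locus D then had 3 of 12 and locus B 19 of 105 (18.1%), while A had 4 of 9 and F 4 of 20. The shares that chose the loci enter these correlations.

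Levels of both alleles together did not choose the loci, so they were tested between the first and the last spine and between the last spine and DF, in windows of 5 kb over the whole series (edgeR quasi-likelihood test, TMM scaling, genotype in the model, Benjamini-Hochberg FDR of 0.05). The fish was not a block in the first fit of either contrast, although each fish gave both tissues. DS1 against DSL asked whether the loci differ between the first and the last spine. In this contrast 0.0661% of 30265 windows were higher in DS1 and 0.165% were lower. Of 41 windows at the 6 loci, 0 were higher and 1 was lower, the flank window of locus C from 7305001 to 7310000. On the TMM-scaled counts per 1 M (CPM) it had 5.05 ± 4.69 in DS1 (lowest 1.48, median 3.65, highest 17.8) and 19.2 ± 7.96 in DSL (6.13, 20.2 and 30.7), which overlap. The log2 difference was −2.11 (SE 0.33, edgeR adjusted p = 0.00164). No window that overlaps a span was called by edgeR, and the log2 differences of these windows lay between −0.30 at C and 0.37 at A.

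DSL against DF set the last spine beside the fin behind it. Over the series 7.54% of 31467 windows were higher in DSL and 9.02% lower. At the loci 6 of 41 windows were higher and 3 lower. Scaling decided much of the split. With library totals in place of TMM, 895 windows of the series were higher and 9055 lower, 4 and 9 at the loci, and the median log2 difference of all windows was −0.29 in place of −0.02. Values below are on TMM scaling.

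Locus B had the clearest level difference, in the direction of the spine. Its window from 6715001 had 4568 CPM ± 1098 in DSL (lowest 2485, median 4749, highest 6262) and 2152 ± 311 in DF (1477, 2189 and 2550) and the ranges overlapped only at their edges. The log2 difference was 1.11 (SE 0.12, edgeR adjusted p = 1.84e-06), and it was 0.89 (SE 0.15, adjusted p = 3.34e-04) in the window from 6720001. The flank window from 6740001 (1.23, adjusted p = 0.00525) and, named after its value was seen, that from 6725001 (0.82, adjusted p = 0.00534) moved alike. At C the window from 7295001 was higher in DSL by 0.81 (SE 0.15, edgeR adjusted p = 5.16e-04), with 3050 CPM ± 940 in DSL and 1770 ± 267 in DF. The sixth window lay in the flank of F, from 13970001 (0.66, adjusted p = 0.0253), and was also named after its value was seen.

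Locus D moved the other way. The window from 300001 had 73.6 CPM ± 10.6 in DSL (lowest 56.5, median 74.0, highest 90.1) and 101 ± 15.2 in DF (70.8, 104 and 122), a log2 difference of −0.42 (SE 0.11, edgeR adjusted p = 0.00900). That from 305001 differed by −0.51 (SE 0.13, adjusted p = 0.0106). The third lower window was a flank window of A from 2405001, at 1.05 CPM ± 0.280 in DF and 0.395 ± 0.424 in DSL (−1.35, edgeR adjusted p = 0.0480). That call was lost without a filter on low counts (−1.35), without libraries under 10 M reads (−1.17) and when any of 8 fish was left out singly (H/L replicates 1 to 4, H/LHR replicates 2 and 3, L/LHR replicates 2 and 3; −1.19 to −1.41). The span windows of A (0.27, SE 0.14, adjusted p = 0.199), E (−0.16, SE 0.19, adjusted p = 0.611) and F (0.09, SE 0.13, adjusted p = 0.680) and the first of C (0.38, SE 0.14, adjusted p = 0.0777) were not called. With the fish as a block, 16 of the 41 windows were called, 10 higher and 6 lower. Over the whole series that fit called 9608 of 31467 windows, 4036 higher and 5572 lower, so calls rose everywhere. Among the 16 were the span window of A (0.23, edgeR adjusted p = 0.0463) and the first of C (0.32, edgeR adjusted p = 0.0346).

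The allele ratio itself was compared between DSL and DF in each genotype. This contrast leaves out AF, but which scan chose each span is not recorded in the sources used here and the fish are the same, so the values are a description and not independent evidence of a tissue difference. The change was taken per fish, as the log2 ratio of alternate to reference reads in DSL minus that in DF. At T2419746C of locus A it was 0.95 ± 0.42 (n = 11), positive in 11 of 11 fish. In H/L fish the share went from 86.8%, 86.8%, 80.7% and 82.2% in DF to 92.1%, 91.4%, 92.7% and 93.6% in DSL, with no overlap. In H/LHR fish it went from 75.9%, 79.6% and 78.3% to 86.1%, 83.6% and 89.9%, again with no overlap. In L/LHR fish it went from 89.5%, 86.4%, 80.1% and 84.4% to 93.2%, 92.9%, 87.9% and 88.0%, where the groups overlap. At this site every DF library met the 10% limit for a heterozygous call. The DSL libraries of the H/L fish and of L/LHR replicates 1 and 2 did not, while those of the H/LHR fish did. The H/L separation is therefore not independent of the call.

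At T7297678C of locus C the change was 0.54 ± 0.34, positive in 11 of 11 fish and smallest in L/LHR fish (0.39 ± 0.25). G304404T of locus D changed by 1.17 ± 0.94, and T8960161C of locus E by 1.12 ± 1.18, each positive in 10 fish. The exception at both was H/L replicate 4, whose DSL library was 1 of the 6 with fewer than 10 M reads (7.43 M). That library gave 16.1% of 31 reads at D and 8.82% of 34 reads at E, against 38.6%, 49.4% and 73.9% (D) and 25.3%, 25.8% and 52.0% (E) in the other H/L fish. At A it did not stand apart (93.6%). Without that fish the changes were 1.35 ± 0.77 at D and 1.42 ± 0.68 at E, positive in 10 of 10 fish, 0.88 ± 0.37 at A and 0.46 ± 0.21 at C. H/L replicate 3 had a shallower DSL library still (4.78 M), with 46 reads at D and 25 at E, and the largest change at D (2.66). Without both fish (n = 9) the changes were 0.80 ± 0.29 at A, 0.42 ± 0.18 at C, 1.21 ± 0.66 at D and 1.40 ± 0.71 at E, positive in 9 of 9 fish at each.

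C13980801T of locus F changed by 2.65 ± 1.82, positive in 10 fish. The exception was H/LHR replicate 2, which went from 44.0% of 91 reads in DF to 34.2% of 73 in DSL, and without both shallow fish the change was 2.24 ± 1.63. G6717913A of locus B changed by −0.60 ± 0.57, negative in 9 of 11 fish (−0.67 ± 0.54 without both shallow fish). In L/LHR fish it was negative in all 4 (−0.999 ± 0.46), from 40.1%, 38.6%, 34.9% and 33.7% in DF to 26.6%, 30.6%, 21.2% and 14.3% in DSL, with no overlap.

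**Figure D5:**
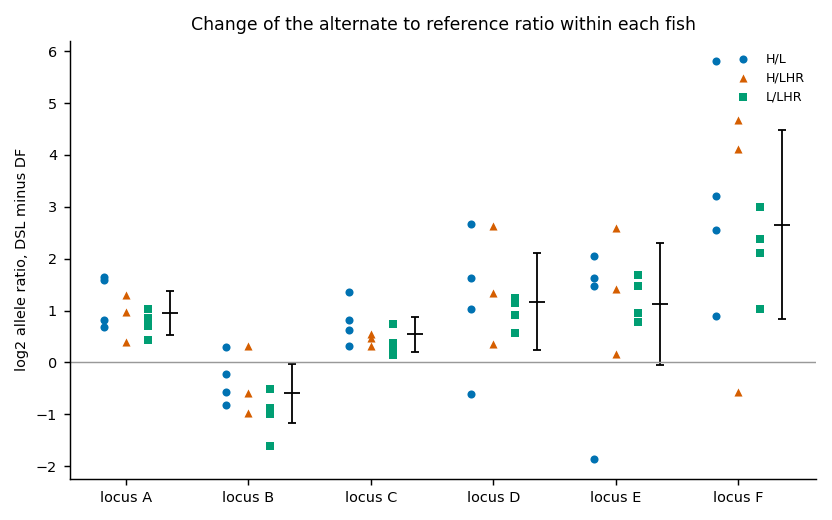
Change of the log2 ratio of alternate to reference reads, DSL minus DF (y axis), at the most-read site of each span (x axis), 1 point per fish with genotype by colour and shape; the black bar gives mean and SD over 11 fish. All 11 points lie above 0 at A and C, 10 at D, E and F, and 2 at B.

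No difference between the 3 genotypes in this change was found beyond the spread of fish. Exact permutation of the genotypes over the 11 fish (between-genotype sum of squares, 11550 arrangements, 6 tests) gave adjusted p-values from 0.683 to 0.905. The group means lay between 0.75 and 1.19 at A, 0.39 and 0.78 at C, 0.97 and 1.44 at D, 0.83 and 1.39 at E, and 2.13 and 3.12 at F, and at B between −0.999 and −0.33. With 3 or 4 fish a group, a p that misses the threshold does not show that the genotypes act alike. The loci were also chosen on allele ratios in these same libraries, so the comparison of genotypes is not independent of that choice.

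The site-by-site comparison of allele ratios over the whole series gave counts that depended on whether the fish was a block. Without it, edgeR's quasi-likelihood test called 0 of 7632 sites for the H/L genotype (0%; 304 at an unadjusted p under 0.05), 0 of 9934 for H/LHR (0%; 339) and 1 of 7614 for L/LHR (0.0131%; 392), and 0 of the 266, 275 and 237 member sites among them. DESeq2 called 3, 0 and 18 sites, of which 3, 0 and 14 were members. The DSL and DF libraries come from the same fish, and with the allele by fish terms edgeR called 1.18% of sites for the H/L genotype, 0.262% for H/LHR and 1.92% for L/LHR. Those calls held 47 member sites for H/L, 6 for H/LHR and 76 for L/LHR. Since the loci were chosen on allele ratios in these libraries, nothing is read from the share of members among the calls, and no p is given for a member site. Sites close together also share reads, so a count of sites is not a count of independent differences.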

How the data were processed

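RNA was sequenced from 85 libraries of 11 fry. Per the labels and the study's methods, the authors prepared libraries with a stranded mRNA kit, trimmed reads (cutadapt 2.4 through Trim Galore), mapped them with STAR to their own assembly, processed alignments with Picard 2.23.4 and SAMtools 1.10 and counted alleles with GATK 4.1.4.1. FastQC 0.11.9 is also listed in the submitters' processing notes. The authors deposited raw counts of reference and alternate reads at each listed variant of a library, with no normalization. Whether duplicates were removed, or biased mapping corrected, is not given in the sources used here. The members, named sites and tests were chosen with earlier results of these data known.

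A library was used at a site with at least 10 reads. A fish was heterozygous where a library had at least 2 reads and 10% from the rarer allele, and sites were described if heterozygous in at least 3 fish. Named sites were the first and last of each span and the most-read site inside the span and in its flanks. Named windows were those overlapping a span and the most-read one on each side. Replicates are different fish. The p-values of windows, except those given with the fish as a block, treat both tissues of a fish as independent libraries. They do not measure the spread of the tissue difference within fish. Windows needed at least 10 reads in at least 11 of 22 libraries. Allele tests took sites heterozygous in each fish, with over 12 reads per fish and a rarer allele over 5%, and fitted the allele by tissue term with a term per library. A pseudocount of 0.5 entered changes per fish. The study's methods state no block, so none was used in the first fits. The titles give the fish, so tissues are paired. Same-fish deviations correlated at 0.0784 to 0.515 (DS1 and DSL), 0.324 to 0.681 (DSL and DF) and, for allele ratios, 0.225 to 0.403. Alternatives were the fish block, DESeq2 1.42.0, library totals, no filter, 10 kb windows, other read minimums, shallow libraries left out and each fish left out. The TMM counts over all sites of share against level, and the changes without the fish with a shallow DSL library, were chosen after seeing the data. Models used edgeR 4.0.16 in R 4.3.3, and the rest Python 3.11.15. The scripts were tested on simulated data. L/L fish were not analysed here.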

Additional observations from a re-analysis of the deposited data

Results flagged for a closer look

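Of 83 groups of 4 fish, 2 held a sample far from the others at the most-read sites, where chance flags about 1 in 20 groups. At T2419746C of locus A, H/L replicate 4 had an alternate share of 92.8% in DS4 (14323 reads), and the nearest of the other 3 fish had 95.4%. At G304404T of locus D, H/L replicate 3 had 30.3% in DF (346 reads), and the nearest had 23.9%.

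Reads with neither of the listed bases were outside the comparisons. Over 929 member sites with at least 1000 raw reads their median share was 0.00641%, and 3 sites exceeded 3%. At T13968213G in the flank of locus F they made up 40.5% of raw reads (26492 of 65489), with tissue means from 39.1% in DS1 and Pter to 43.9% in DS3, and no fish was heterozygous for the 2 listed bases. At C6720715A in the span of locus B they made up 4.1002% (2684 of 65460), and at T7291793C in the flank of locus C 7.26% (383 of 5274). What these bases were was not tested, since the files count them together.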

How the results depend on the processing

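In the level contrast of DS1 and DSL, DESeq2 called 164 windows where edgeR called 70, and leaving out a fish gave 53 to 80, with 1 window at the 6 loci each time. Small differences changed sign without 1 fish: the A window from 2405001 ranged from −0.017 to 0.67, the B windows from 6720001 and 6740001 from −0.049 to 0.14 and −0.15 to 0.10, and the C window from 7295001 from −0.30 to 0.057, with H/L replicate 4 behind a change of sign at each. The B window from 6740001 also became −0.066 on library totals and −0.016 without libraries under 10 M reads. For DSL and DF, where the first fit called 5210 windows and 9 at the loci, the replicate block gave 9608 and 16, library totals 9950, and fits without 1 fish 4123 to 5178 and 7 to 10. The A window from 2415001 became −0.000864 and the F window from 13980001 −0.19 on library totals, and the latter −0.025 without libraries under 10 M reads. For allele ratios the replicate block gave 90 calls for H/L (47 at the loci), 26 for H/LHR (6) and 146 for L/LHR (76), and DESeq2 gave 3 (3) for H/L and 18 (14) for L/LHR. These counts at the loci are favoured by the choice of the loci. Without 1 fish the calls were 0 for H/L, 0 to 1 for H/LHR (without replicate 3 the 1 call was at the loci) and 0 for L/LHR. The causes were not tested. The tissue range of the alternate share moved by less than the SD over fish in 286 of 287 alternatives. Of these alternatives 221 left out 1 fish, which can hardly move a mean by that SD, so they say little about stability. The rank correlation of share with level moved with TMM scaling at 10 of 22 named sites and, against the level of the reference allele alone, at 9, and it turned to −0.69 at T7297678C. On TMM scaling 49 member sites in place of 62 had a rank correlation of at least 0.7 in size. Depth limits locus F, with 218 reads over 8 DS4 libraries, and loci D and E in the libraries under 10 M reads.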
